A study of Rattus norvegicus with 12 samples.

Results

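The steady-state transcriptome of cultured neonatal rat cardiomyocytes that received only a scrambled small interfering RNA (siRNA) was described from 3 of the 12 RNA-seq libraries of a study of Btg1 and Btg2 depletion. The 3 libraries were chosen by their titles and treatment labels. Each came from wildtype newborn (P0) Sprague-Dawley rat heart ventricles, was given 20 nM scramble siRNA with a Lipofectamine reagent, and was harvested 48 hours later. The other 9 libraries, in 3 knockdown groups, were not used. The cells were a primary culture grown in serum after fibroblasts had been separated, so the culture was enriched for cardiomyocytes and not pure. Whether the libraries came from separate isolations is not recorded in the labels, so the spread between them may be technical. No untransfected culture was measured, and levels cannot be split into those of resting cells and those of transfected cells.

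Cardiomyocytes contract through sarcomeres, in which thick filaments of myosin pull on thin filaments of actin under the control of troponin and calcium. In rodents the ventricle passes around birth from fetal to adult isoforms of several sarcomere and metabolic genes, from glycolysis towards fatty acid oxidation, and from dividing to mostly non-dividing cells. Neonatal ventricular cultures are a standard model of the immature cardiomyocyte and of hypertrophic growth, for which the natriuretic peptides Nppa and Nppb serve as markers. Btg1 and Btg2, the genes the study depleted, encode related antiproliferative proteins that bind the CCR4-NOT deadenylase, which shortens the poly(A) tails of messenger RNA.

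The promoters of 3 genes are shown because their genes stood among the 10 highest of the table and carry a short motif that was searched for: Reg3b, a secreted lectin, Nppa, the atrial natriuretic peptide, and Myl3, the ventricular essential myosin light chain. Each run is the RefSeq promoter of the rat assembly GRCr8, from 250 bases before to 50 bases after the annotated start, on the plus strand. These are chr4:112419526-112419825 for Reg3b, chr5:163711934-163712233 for Nppa and chr8:119616844-119617143 for Myl3. The deposited counts used the older build rn5, and no position was carried between builds. Capitals mark only the matches named here, and other matches are left in lower case. In Reg3b they are TTCTTGGAA, which fits the letters TTCNNNGAA that STAT factors are known to bind, at position -129, and TATAAA at position -29. In Nppa they are TATAAA at position -39, and in Myl3 a CArG box, the kind of site that serum response factor binds, at position -97. Actc1, also among the 10 highest, carries a CArG box at position 2, past the start, and its promoter is not printed.
Reg3b promoter: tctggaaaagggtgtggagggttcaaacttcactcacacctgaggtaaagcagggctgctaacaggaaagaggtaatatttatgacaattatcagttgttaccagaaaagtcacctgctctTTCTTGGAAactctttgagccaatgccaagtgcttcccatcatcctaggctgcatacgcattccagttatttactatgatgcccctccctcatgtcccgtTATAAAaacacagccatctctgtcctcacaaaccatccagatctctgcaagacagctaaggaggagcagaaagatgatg
Nppa promoter: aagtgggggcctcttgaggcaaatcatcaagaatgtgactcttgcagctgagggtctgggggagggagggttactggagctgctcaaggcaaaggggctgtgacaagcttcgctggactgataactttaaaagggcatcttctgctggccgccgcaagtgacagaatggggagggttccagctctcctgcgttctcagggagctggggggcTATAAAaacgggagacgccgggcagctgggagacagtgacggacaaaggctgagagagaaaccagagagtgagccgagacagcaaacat
Myl3 promoter: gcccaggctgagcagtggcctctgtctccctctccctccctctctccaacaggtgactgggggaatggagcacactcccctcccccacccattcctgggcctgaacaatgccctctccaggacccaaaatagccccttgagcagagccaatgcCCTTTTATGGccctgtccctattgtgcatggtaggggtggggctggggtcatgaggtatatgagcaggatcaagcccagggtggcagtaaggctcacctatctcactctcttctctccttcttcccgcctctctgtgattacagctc

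The motifs were also counted over the 11753 promoters that matched 1 gene of the table each. TATAAA between 45 and 15 bases before the start, on the gene's strand, stood in 2.53% of all promoters. By level it stood in 5.39% of the promoters of genes averaging under 1 TPM (transcript abundance scaled to a fixed library total), 0.877% of those at 10 to 100 TPM, and 8 of 100 (8.0%) of those at 1000 TPM or more. GGGCGG on either strand stood in 54.1% of all promoters and in 29.8% of those of genes under 1 TPM. TTCNNNGAA anywhere in the window stood in 7.18% of all promoters, and a CArG box in 1.23%. CArG boxes stood in 3 of 12 promoters of thin filament genes and in 3 of 12 of immediate early genes. They stood in 1 of 10 promoters of thick filament genes, 1 of 11 of Z-disc genes and 0 of 14 of calcium handling genes. TTCNNNGAA stood in 1 of 11 promoters of the secreted defence and acute-phase genes described below, Reg3b among them. CCAAT on either strand stood in 37.4% of all promoters and in 12 of 15 promoters of genes of mitosis. A match is a description of the letters and not a measured binding site.

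A pair of heart microRNAs is shown because their genes lie within the introns of the myosin genes in rodents and their rows had counts. Capitals mark the seed, bases 2 to 8, and the mature sequences are from RefSeq GRCr8. Both share the seed UAAGACG.
miR-208a-3p: aUAAGACGagcaaaaagc
miR-208b-3p: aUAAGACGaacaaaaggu
The row of Mir208a, hosted by Myh6, held 3.5, 4.2 and 4.6 TPM, from 5, 7 and 7 counts. The row of Mir208b, hosted by Myh7, held 10.5, 12.0 and 11.3 TPM, from 20, 27 and 23 counts. Reads in these short rows cannot be told apart from those of the host transcript, and mature microRNAs were not measured.

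The libraries held between 33248851 and 39128757 counts over 17419 genes. Pearson correlations between pairs of libraries, across genes on log2(TPM + 1), were 0.9984 to 0.9985. Counts of each pair differed by more than Poisson noise, with chi-square per degree of freedom of 4.07 to 4.82, so no library was counted as a repeat deposit of another. Reads of amplified RNA are not independent, so this value does not show that the cultures were separate. In all 3 libraries, 11135 genes (63.9%) reached 1 TPM, 8395 (48.2%) reached 10 TPM, 2083 (12.0%) reached 100 TPM and 129 (0.741%) reached 1000 TPM. These shares of all genes are the background for the class counts given later. The median gene averaged 9.07 TPM. A row with 0 counts allows up to 0.0767 to 0.0902 CPM (counts scaled to a fixed library total), taking 3 counts as the limit, which covers counting error only. The 10 highest genes took 5.12% ± 0.0765 of all TPM (SD, n = 3), the 100 highest took 20.3% ± 0.145, and 669 genes held 50% of the total.

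TPM is corrected for gene length, and the length behind each value can be read back as the counts per unit of TPM. With the alpha myosin heavy chain gene Myh6 set at 1, that length was 1.0 for Myh7, 0.185 for Tnnt2 and 0.0417 for Myl2. It was 2.84 for Tpm1, 5.2 for Ryr2, 7.82 for Vegfa, 9.42 for Slc8a1 and 27.7 for Plec. Except for Ryr2, with 2, these long-length genes have 9 to 13 curated RefSeq transcripts. Across genes with at least 500 counts per library the median length was 0.384 for 6791 genes with 1 curated transcript and 0.494 for 122 genes with 4 or more. The 90th percentile was 0.85 for genes with 1 curated transcript and 2.62 for those with 4 or more. How the authors set the length is not given in the sources used here, so an order of genes by TPM holds for this length only. The same gene led by TPM and by counts in 20 of the 39 class and marker lists. Orders are by TPM unless CPM are named, and CPM are given beside the leading genes of several lists where the order turns.

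By TPM, cardiomyocyte markers had the highest sum of the 13 marker lists, followed by those of fibroblasts. By list median, endothelial and blood cell markers were near the level of the median gene, 9.07 TPM, or under it. Single markers stood above that level, among them Cd68 at 25.9 TPM and the endothelial Egfl7 at 19.3 TPM. The 7 cardiomyocyte markers in the table summed to 23590 ± 376.5 TPM (SD, n = 3), or 2.36% of all TPM, and 6 of them exceeded 1000 TPM, against 0.741% of all genes. Tnnt2, the cardiac troponin T that anchors troponin to the thin filament, stood at 7224.5, 6836.9 and 7234.8 TPM in replicates 1, 2 and 3. Myh6, the fast alpha myosin motor of the rodent heart, stood at 2637.3, 2612.9 and 2735.5 TPM. Both were far above the median gene in every library, so the labelled cell type has its defining markers. Ryr2, the calcium release channel, was the lowest of these markers at 59.9 TPM, but stood 80th of all genes by counts with 941.8 CPM.

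Fibroblast markers summed to 6966 ± 86.0 TPM, and all 8 reached 10 TPM, against 48.2% of all genes. Col1a2, a chain of type I collagen, stood at 727.8, 742.7 and 728.4 TPM, with no library apart from the others. Its partner chain Col1a1 averaged 1963 TPM, and Dcn, which encodes the matrix proteoglycan decorin, averaged 1512 TPM. The receptor Pdgfra and the transcription factor Tcf21, which mark cardiac fibroblasts more narrowly than collagens do, averaged 58.3 and 51.7 TPM. The collagens were over 10 times the level of these regulators. By counts Col1a1, Col3a1 and Col1a2 had 5838, 3518 and 3342 CPM, beside 8050 CPM for Myh6 and 3969 CPM for Tnnt2. Col1a1 then stood above Tnnt2, so the distance between the cardiomyocyte and fibroblast sums holds for the TPM lengths only. In bulk RNA, fewer cells of a type and less RNA per cell cannot be told apart, so these sums are not cell shares.

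Endothelial markers summed to 71.9 ± 3.29 TPM. Kdr, the main receptor for vascular endothelial growth factor, stood at 13.8, 14.1 and 14.0 TPM. It was above the median gene, while Pecam1, an adhesion molecule of endothelial junctions, averaged 8.67 TPM. Macrophage and leukocyte markers summed to 54.9 ± 4.0 TPM, of which the lysosomal protein Cd68 gave 47.2%. Csf1r, the receptor on which macrophages depend, stood at 2.4, 1.8 and 1.6 TPM. The pan-leukocyte phosphatase Ptprc held 0.2 TPM in each library and averaged 2.249 CPM, beside 3.672 CPM for Csf1r. Leukocyte transcripts were thus present at a low level on both scales. Of 8 T, B and mast cell markers in the table, 1 reached 1 TPM, the receptor Kit, which other cells also make.

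Mural and other markers were carried by a few genes. Smooth muscle markers summed to 2671 ± 123.6 TPM, of which Acta2, the smooth muscle alpha-actin that immature cardiomyocytes and activated fibroblasts also make, gave 78.8%. Myh11, the smooth muscle myosin with a narrower expression, averaged 5.03 TPM. Pericyte markers summed to 272.9 ± 2.46 TPM, of which the growth factor receptor Pdgfrb, at 118.2 TPM, gave 43.3%. By counts their levels ran from 4.677 CPM for Rgs5 to 323.9 CPM for Pdgfrb, and Kcnj8 had 12.33 CPM. Epicardial markers summed to 85.2 ± 1.63 TPM, led by the uroplakin Upk1b at 53.8 TPM, with the transcription factor Wt1 at 4.80 TPM. Schwann and neuronal markers summed to 38.6 ± 1.83 TPM, of which the neuronal tubulin Tubb3 gave 78.3% and the Schwann cell factor Sox10 held 0.1 TPM in each library. Erythroid markers summed to 4.17 ± 0.493 TPM. Ckm, the muscle creatine kinase that the heart also makes, gave the whole sum of the skeletal muscle list to rounding, 680.4 ± 31.9 TPM. The myogenic factor Myod1 and the liver gene Alb had 0 counts in every library, and adipocyte markers summed to 0.1 TPM.

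**Figure D1:**
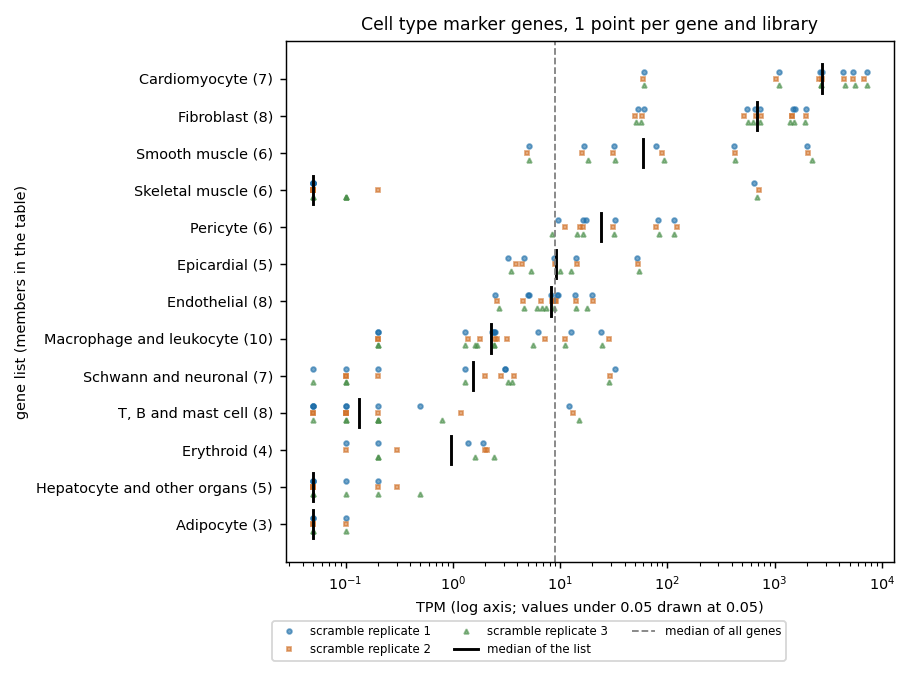
TPM (log axis) of each marker gene in each of the 3 scramble libraries, by cell type list, ordered by summed TPM; black bars are list medians and the dashed line is the median of all genes at 9.07 TPM. Cardiomyocyte markers have a median of 2772 TPM and fibroblast markers 693.3 TPM, while endothelial markers have 8.32 TPM and macrophage and leukocyte markers 2.27 TPM.

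The highest genes by TPM were sarcomere genes with a secreted lectin and a natriuretic peptide among them. After Tnnt2 came Myl2, the ventricular regulatory light chain, at 6545.4, 6798.5 and 6508.7 TPM, and Reg3b at 6930.5, 6158.1 and 6455.9 TPM. The ranges of Myl2 and Reg3b overlapped, so their order is within the spread between libraries. Tnnt2 was the highest gene in every library, and its range lay above that of Myl2 but overlapped with that of Reg3b. Actc1, the cardiac alpha-actin, followed at 5370.6, 5444.6 and 5576.4 TPM, below all 3 of them in every library. The same 10 genes led in each library, and 29 of the 30 highest were shared by all 3. The 30 also held the calcium-binding troponin subunit Tnnc1, the matrix proteins Sparc and Mgp, the iron store Fth1, the ATP synthase subunits Atp5f1a and Atp5f1b, and the ribosomal RNA rows Rn45s and Rn28s. By counts with no length correction, 15 of these 30 were among the 30 highest. Myh6 then stood 2nd with 8050 CPM, behind Rn45s, and Atp2a2, Col1a1, Fn1 and Myh7 came before Actc1. Reg3b stood 18th with 2591 CPM, and Myl2 105th with 834.7 CPM.

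**Figure D2:**
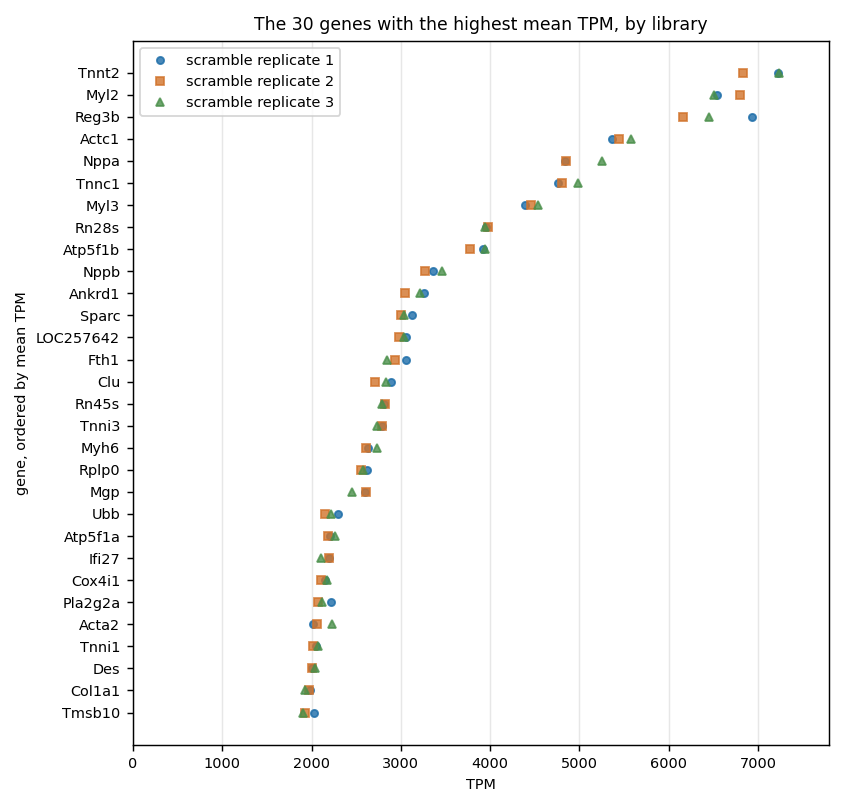
TPM of the 30 genes with the highest mean TPM, 1 point for each of the 3 scramble libraries. Tnnt2 leads in every library, Myl2 lies within the range of Reg3b, 6158.1 to 6930.5 TPM, and Actc1 lies below these 3.

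Thick filament genes held adult ventricular and fetal forms side by side. Myh7, the slow beta myosin that dominates the fetal rodent ventricle, stood at 1740.9, 1776.8 and 1838.5 TPM, below Myh6 in every library. The ratio of Myh6 to Myh7 was 1.49 ± 0.0223 (SD, n = 3), and the lengths behind both are equal. Myl2 exceeded the atrial light chain Myl7 by 60.6 ± 3.68 times by TPM and 26.1 times by counts. Myl3 stood at 4391.5, 4453.2 and 4535.8 TPM and exceeded the atrial and fetal light chain Myl4 by 30.6 ± 0.194 times. Both ratios were of the ventricular kind, with the atrial genes still above 100 TPM. Mybpc3, which encodes cardiac myosin-binding protein C, averaged 877.1 TPM. Of 12 thick filament genes in the table, 9 (75.0%) reached 100 TPM, against 12.0% of all genes. Mybphl, a binding protein of atrial muscle, was the lowest of the 12 at 1.57 TPM.

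On the thin filament, fetal and adult troponin I were both abundant. Tnni3, the cardiac form, stood at 2786.8, 2791.7 and 2738.2 TPM. Tnni1, the slow skeletal form that the fetal heart uses, stood at 2055.6, 2016.7 and 2071.9 TPM. The form of the adult heart was higher in every library, with a ratio of 1.35 ± 0.0314. Actc1 exceeded the skeletal alpha-actin Acta1, at 709.0, 881.3 and 876.7 TPM, by 6.70 ± 0.759 times, and replicate 1 was low in Acta1. Fast skeletal troponins were close to the limit of rounding, with Tnni2 at 0.267 TPM and Tnnt3 at 0.167 TPM, and Tnnc2 held 0.3, 1.2 and 0.2 TPM. Close copies such as the actins and the myosins share sequence, and how shared reads were assigned is not given in the sources used here.

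Against 12.0% of all genes, 14 (73.7%) of 19 Z-disc and costamere genes reached 100 TPM. They were led by Ankrd1, a stretch-responsive ankyrin repeat protein, at 3174.9 TPM, by the intermediate filament desmin (Des) at 2014 TPM, and by the small heat shock protein Cryab at 1731 TPM. Actn2, the cross-linker of the Z-disc, stood at 1176.0, 1191.4 and 1210.5 TPM, and the muscle LIM protein Csrp3 averaged 1345 TPM. Myot, a Z-disc protein of skeletal muscle, held 0.733 TPM. Dmd, dystrophin, averaged 16.7 TPM with a length of 3.35 times that of Myh6.

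Both natriuretic peptides of the myocardium were among the 10 highest genes. Nppa stood at 4844.2, 4851.2 and 5251.0 TPM, and Nppb, the B-type peptide, at 3360.0, 3270.9 and 3464.3 TPM. Nppa was higher in every library, by 1.48 ± 0.0371 times. Furin, a protease that can cleave the Nppb precursor, averaged 240.3 TPM, while Corin, the protease that activates the Nppa product, averaged 0.767 TPM. The receptors were far below the peptides. Npr1 at 5.0 TPM and the clearance receptor Npr3 at 3.80 TPM were under the median gene of 9.07 TPM. Npr2, at 21.5 TPM, was above it. Rcan1, a feedback inhibitor of calcineurin that serves as a reporter of its activity, averaged 525.4 TPM.

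Among 23 genes of calcium handling, 20 reached 10 TPM and 9 reached 100 TPM, against 48.2% and 12.0% of all genes. Atp2a2, the pump that returns calcium to the sarcoplasmic reticulum, stood at 821.9, 803.5 and 821.3 TPM and was the fourth gene of the table by counts. Its ventricular inhibitor phospholamban (Pln) stood at 1090.6, 1034.8 and 1103.3 TPM, and the atrial inhibitor sarcolipin (Sln) at 19.4, 16.3 and 17.2 TPM. Pln exceeded Sln by 61.3 ± 4.40 times by TPM and by 464.7 times by counts, so the pair was of the ventricular kind on both scales. The calcium store protein Casq2 averaged 908.1 TPM. The sodium-calcium exchanger Slc8a1 averaged 36.0 TPM but 1027 CPM. Of the pore subunits of calcium channels, Cacna1c, the L-type channel of the ventricle, averaged 30.5 TPM, and Cacna1d, the L-type channel of pacemaker cells, 0.333 TPM. The T-type subunits Cacna1g and Cacna1h, which the fetal ventricle uses, averaged 33.0 and 23.1 TPM.

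Of 24 genes of sodium and potassium transport and pacemaking, 16 (66.7%) reached 10 TPM, against 48.2% of all genes. Fxyd1, phospholemman, a small membrane protein that regulates ion transport in the heart, stood at 1773.3, 1842.7 and 1808.5 TPM. Genes of the transient outward current were low, with Kcnd2 at 0.533 TPM (1.062 CPM) and its partner Kcnip2 at 0.767 TPM (5.367 CPM). The pacemaker channels Hcn2 and Hcn4 averaged 44.5 and 17.6 TPM. Values for Hcn2 and Hcn4 are given although they fall outside the naming rule, chosen after their levels were seen.

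At the intercalated disc, where cardiomyocytes join, all 11 genes in the table reached 10 TPM, against 48.2% of all genes. Gja1, connexin 43 of ventricular gap junctions, stood at 812.9, 762.2 and 786.3 TPM and exceeded Gja5, connexin 40 of atrium and conduction system, by 20.4 ± 1.21 times. The adhesion proteins Cdh2 and Ctnna1 averaged 521.1 and 505.8 TPM. Dsc2, a desmosomal cadherin, was lowest at 14.9 TPM. No gene of the list reached 1000 TPM.

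Transcription factors of the heart had a median of 53.5 TPM over 26 genes, against 9.07 TPM over all genes. Nkx2-5, the homeobox factor of the cardiac lineage, stood at 293.5, 325.4 and 310.9 TPM. Hand2, Gata4 and the oestrogen-related receptor Esrra, a regulator of mitochondrial genes, averaged 255.8, 224.5 and 153.8 TPM. By counts Gata4 led with 379.3 CPM, and Nkx2-5 had 208.9 CPM. Hand2 had only 44.68 CPM, with a length of 0.0577 times that of Myh6, beside 169.2 CPM for Esrra. Irx4, a factor of ventricular identity, averaged 127.5 TPM. Tbx5, a factor of the first heart field and atria, stood at 12.1, 11.9 and 12.1 TPM. Isl1, a marker of the second heart field progenitors, averaged 0.833 TPM.

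Receptors for hormones and transmitters had a median of 16.3 TPM over 22 genes. Of them, 13 (59.1%) reached 10 TPM, against 48.2% of all genes. Adrb1, the beta 1 adrenergic receptor that dominates in cardiomyocytes, stood at 75.7, 90.4 and 80.5 TPM, with replicate 2 highest. Adrb3 had 0 counts in every library. The shared cytokine receptor subunit Il6st was highest at 171.8 TPM, and the endothelin receptor Ednra averaged 104.9 TPM. The angiotensin receptor Agtr2 averaged 0.167 TPM. Chrm2, the muscarinic receptor of the heart, averaged 62.2 TPM.

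Mitochondrial genes were among the highest classes. All 32 nuclear-encoded genes of oxidative phosphorylation in the table reached 100 TPM, against 12.0% of all genes, and 13 reached 1000 TPM. Their sum was 33140 ± 229.5 TPM, 3.31% of all TPM, and their median 857.9 TPM. Atp5f1b, the catalytic beta subunit of ATP synthase, led at 3925.5, 3779.3 and 3937.6 TPM. Cox4i1, a subunit of cytochrome oxidase, averaged 2146 TPM. No symbol of a mitochondrially encoded gene stands in the table, so that genome was not analysed here. Of the tricarboxylic acid cycle, Mdh2 and Idh2 averaged 1106 and 1018 TPM. Slc25a4, the ADP/ATP carrier of heart, exceeded Slc25a5, the carrier of proliferating cells, by 2.55 ± 0.0663 times.

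Fuel genes showed ubiquitous forms beside muscle forms. All 22 genes of fatty acid oxidation reached 1 TPM, against 63.9% of all genes. The list had a median of 162.4 TPM. Fabp3, the heart fatty acid-binding protein, stood at 1508.9, 1544.4 and 1600.1 TPM. Cpt1b, the muscle form of the enzyme that admits fatty acids to mitochondria, exceeded the liver form Cpt1a by 1.64 ± 0.0696 times by TPM and 1.07 times by counts. Pdk4 and Ppara, which favour fatty acid use, averaged 13.2 and 9.93 TPM. Glycolytic genes had a median of 327.3 TPM over 21 genes. Slc2a1, the basal glucose transporter of fetal heart, stood at 164.5, 153.0 and 150.7 TPM, and Slc2a4, the insulin-responsive one, at 70.6, 79.5 and 80.2 TPM. The basal form was higher in every library, and Slc2a4 was 0.494 ± 0.0562 of it. Hk2 was 0.166 ± 0.0102 of Hk1, Eno3 0.0901 ± 0.00559 of Eno1 and Pgam2 0.0851 ± 0.00328 of Pgam1, so the form known from adult muscle was the lower one in these 3. Ckm, the muscle creatine kinase, went the other way and exceeded the brain form Ckb by 3.45 ± 0.214 times. Ldha averaged 1316 TPM and Ldhb, the heart subunit, 588.8 TPM. By counts the order turned, with a ratio of Ldhb to Ldha of 1.14, and the length behind Ldhb was 2.55 times that of Ldha. Cox6a2, the heart form, was 0.829 ± 0.00745 of Cox6a1 by TPM and 1.37 of it by counts.

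**Figure D3:**
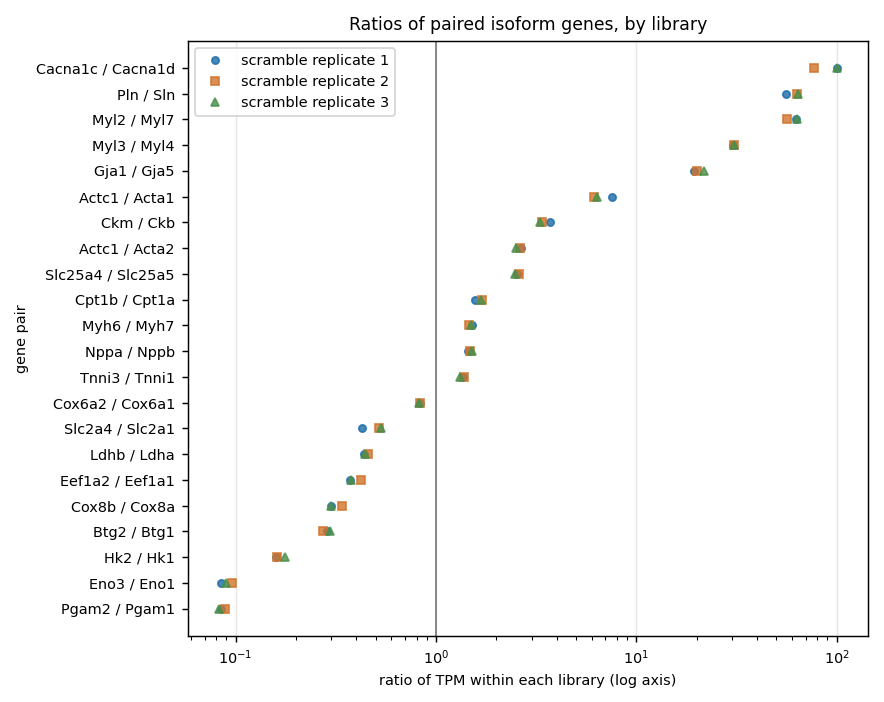
Ratio of TPM of 2 related genes within each of the 3 scramble libraries (log axis), with a line at 1. The 22 pairs drawn lie from 0.0851 for Pgam2 over Pgam1 to 93.0 for Cacna1c over Cacna1d on average, and 13 of them lie above 1.

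In all 24 pairs of related genes with both members in the table, the ranges of the 2 genes over the libraries did not overlap. This describes how far the levels of different genes lie apart, since the median coefficient of variation (CV) between libraries was 3.43% among genes averaging at least 10 TPM. For 8 of 20 pairs with a length for both genes, the lengths differed by over 1.5 times. The direction turned under counts for Ldhb and Ldha and for Cox6a2 and Cox6a1, and in none of the other 22 pairs.

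Genes of protein synthesis and the cytoskeleton formed the other high classes. The 40 cytosolic ribosomal protein genes summed to 32090 ± 457.3 TPM, and 38 (95.0%) reached 100 TPM, against 12.0% of all genes. Their levels ran from 39.3 TPM for Rps19 to 2585 TPM for Rplp0. Ribosomal proteins work in equal copies, and many have pseudogenes that share reads, so single values are uncertain. Elongation factor genes Eef2 and Eef1a1 averaged 1849 and 1734 TPM, and Eef1a2, the form of adult muscle and neurons, was 0.389 ± 0.0275 of Eef1a1. The cytoskeleton list had the highest median of all classes, 1039 TPM, with the small actin-binding thymosins Tmsb10 and Tmsb4x at 1955 and 1633 TPM.

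Extracellular matrix genes were well above the background as a class. Of 30, 23 (76.7%) reached 100 TPM and all reached 10 TPM, against 12.0% and 48.2% of all genes. Sparc, a collagen-binding glycoprotein, led at 3124.7, 3007.4 and 3040.9 TPM, followed by Col1a1 and Dcn. Col3a1 averaged 1445 TPM, and Bgn, biglycan, 1321 TPM. The fibroblast marker sum given above moves with this class in kind, since the lists share collagens, and the part of each cell type in it was not tested. By counts Col1a1 led with 5838 CPM, before Fn1, fibronectin, with 5415 CPM, and Sparc had 3165 CPM. Vcan, versican, was lowest by TPM at 27.8 TPM, but had 446.6 CPM with a length of 5.31 times that of Myh6. Of secreted signals, the chemokine Ccl2 led at 1336.3, 1159.9 and 1297.8 TPM, while Vegfb, Tgfb2 and Gdf15 averaged 163.1, 128.2 and 110.2 TPM. By counts Vegfa, the main vascular growth factor, led with 836.9 CPM, and Ccl2 had 502.3 CPM. Nrg1, a growth factor of endothelial cells, held 0.1 TPM in each library and averaged 2.685 CPM. Bmp10, an atrial factor, had 1 count in replicate 2 and none elsewhere.

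**Figure D4:**
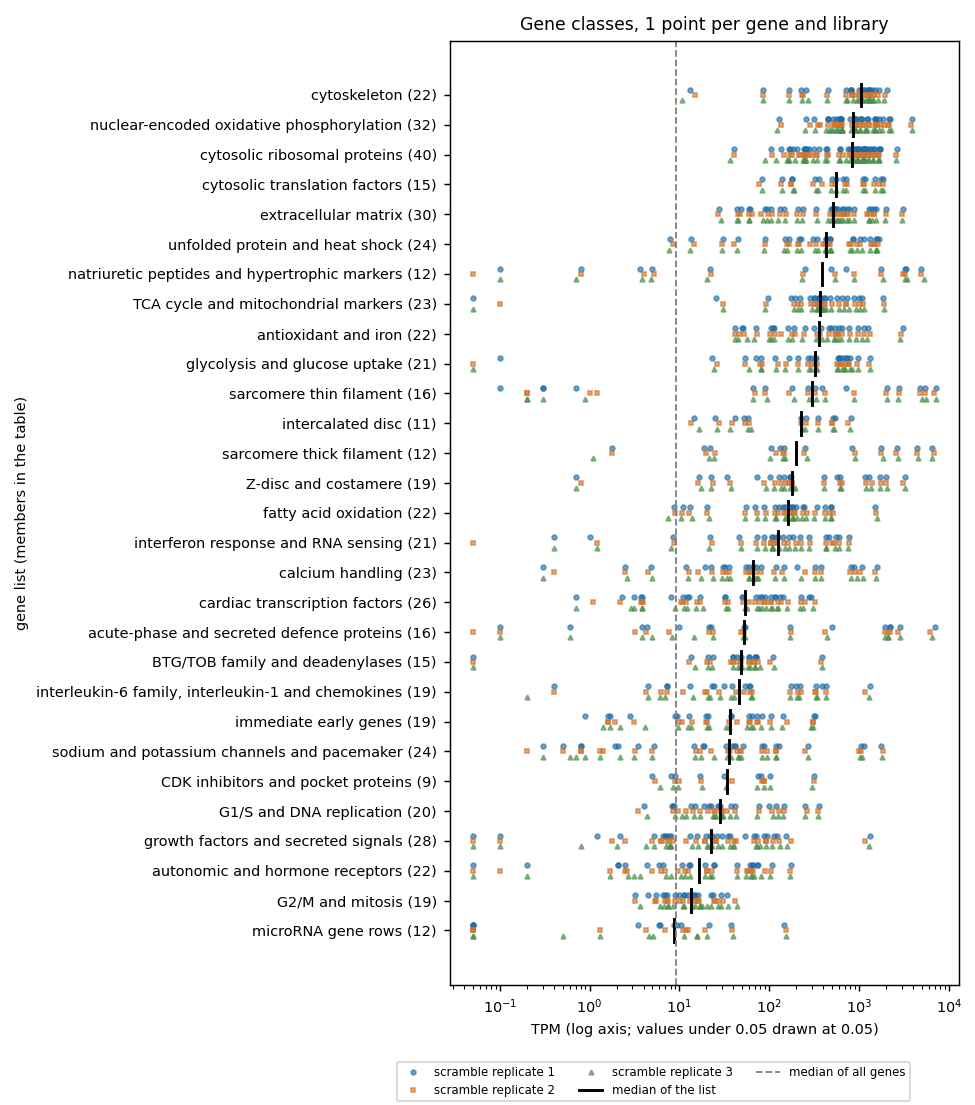
TPM (log axis) of each gene in each of the 3 scramble libraries, by class, ordered by list median (black bars); the dashed line is the median of all genes at 9.07 TPM. The cytoskeleton, oxidative phosphorylation and ribosomal protein lists have the highest medians, at 1039, 857.9 and 836.8 TPM, and the G2/M list the lowest of the functional classes at 13.5 TPM.

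Cell cycle genes of G2/M and mitosis had a median of 13.5 TPM, against 9.07 TPM over all genes. All 19 reached 1 TPM, 12 (63.2%) reached 10 TPM and none reached 100 TPM. Over all genes these shares were 63.9%, 48.2% and 12.0%. Cdk1, the kinase that drives entry into mitosis, led at 34.0, 41.6 and 43.4 TPM, and Birc5, survivin, stood at 16.2, 24.3 and 22.3 TPM. Replicate 1 was lowest in both. By counts Top2a, the topoisomerase of dividing cells, led with 43.2 CPM, and Cdk1 had 24.01 CPM. The list summed to 256.6, 290.5 and 318.4 TPM, and its CV of 10.7% was the highest of the 26 classes. Replicate 1 alone was lowest in 15 of the 19 genes, beside 34.6% of the 11308 genes averaging at least 1 TPM. These genes share their libraries and are not independent, and the difference was not tested. The fibroblast marker sums in the same order of libraries were 7057.3, 6955.1 and 6886.4 TPM, so the library lowest in G2/M genes was highest there. This order is not particular to fibroblast markers, since ribosomal protein genes summed to 32541, 32088 and 31627 TPM. Thick filament genes went the other way, with 16821, 17248 and 17219 TPM. No link between these sums was tested.

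Genes of G1/S and replication stood higher, with a median of 28.6 TPM over 20 genes. Of them, 16 (80.0%) reached 10 TPM and 5 (25.0%) reached 100 TPM, against 48.2% and 12.0% of all genes. The G1 kinase Cdk4 and cyclin Ccnd3 averaged 352.8 and 256.8 TPM. Pcna, the sliding clamp of DNA polymerase, stood at 120.4, 128.0 and 124.0 TPM. Cdkn1a, the inhibitor p21, led the inhibitors at 313.3, 317.8 and 302.4 TPM, and Cdkn1b, p27, averaged 97.2 TPM. Cdkn1a was above every gene of mitosis in the list. Rbl1, a pocket protein of cycling cells, averaged 5.47 TPM.

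Of the genes the study targeted, Btg1 stood at 383.1, 378.7 and 385.1 TPM and Btg2 at 109.0, 103.2 and 113.8 TPM. Btg1 was the higher one in every library, and Btg2 was 0.284 ± 0.0115 of it. By counts Btg1 had 285.2 CPM and Btg2 139.7 CPM, as the length behind Btg2 was 1.72 times that of Btg1. The relatives Tob1 and Btg3 averaged 75.1 and 69.4 TPM, and the germ cell member Btg4 had 0 counts. Of CCR4-NOT, the deadenylase subunits Cnot8, Cnot6 and Cnot7 averaged 68.8, 59.2 and 41.7 TPM, and the scaffold Cnot1 48.8 TPM. By counts Cnot1 stood above Btg2, with 192.0 CPM.

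Immediate early genes had a median of 36.2 TPM over 19 genes. Ier3 and Junb averaged 309.9 and 309.2 TPM (173.4 and 281.7 CPM), and Jund and Jun 145.7 and 104.4 TPM, while Fos, their classical partner, stood at 12.9, 13.7 and 13.4 TPM. Chaperones were high, with the small heat shock proteins Hspb1 and Hspb7 at 1626 and 1339 TPM and the endoplasmic reticulum chaperone Hspa5 at 1083.8 TPM. Hspa1b and Hspa1a, heat-inducible and near-identical copies that can share reads, averaged 7.97 and 13.8 TPM. By counts the cytosolic chaperone Hsp90ab1 led with 1798 CPM, and Hspb1 had 737.1 CPM. Ferritin heavy chain Fth1 averaged 2945 TPM.

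Interferon-stimulated genes were detected as a class: 18 of 21 reached 10 TPM and 14 reached 100 TPM, against 48.2% and 12.0% of all genes. Isg15, a ubiquitin-like modifier, stood at 782.3, 774.7 and 748.7 TPM. Irf7, the factor that amplifies the response, averaged 604.3 TPM, the antiviral GTPase Mx2 540.7 TPM and the chemokine Cxcl10 426.9 TPM. Ifi27, an interferon-inducible gene chosen by its place among the 30 highest, averaged 2168 TPM. Ifnb1, the interferon itself, held 0.4, 0.0 and 0.4 TPM. Of 21 genes, 7 did not reach 100 TPM, among them Ifit1 at 1.13 TPM. By counts Mx2 led with 707.7 CPM, before Irf7 with 603.8 CPM and Isg15 with 259.4 CPM. Ifnb1 was near the limit of rounding, and with no untransfected culture the part of transfection was not tested.

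Secreted defence and acute-phase genes were listed after Reg3b had been seen among the highest genes, so their counts support nothing on their own. Reg3b is known in rodent heart as a cardiomyocyte product that responds to oncostatin M and attracts macrophages. Its relative Reg3g stood at 498.5, 414.5 and 442.1 TPM, and in both genes replicate 1 was highest and replicate 2 lowest. Reg3a averaged 3.97 TPM. Clu, a secreted chaperone, Pla2g2a, a secreted phospholipase, and Lcn2, a siderophore-binding protein, averaged 2811, 2134 and 1950 TPM. Acute-phase genes known from liver spanned a wide range, with Lbp at 171.2 TPM, C3 at 52.3 TPM, Hp at 8.57 TPM and Fgg at 0.0667 TPM. Of the 16 listed genes, 5 reached 1000 TPM, and the median was 52.1 TPM. By counts Clu, with 2667 CPM, stood just above Reg3b.

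Of the interleukin-6 family, listed in the same way, the ligand Osm held 0.4, 0.4 and 0.2 TPM. Its receptor Osmr stood at 59.6, 60.4 and 63.2 TPM and the shared subunit Il6st at 174.4, 169.1 and 171.9 TPM. The signal transducer Stat3 and its feedback inhibitor Socs3 averaged 328.6 and 209.7 TPM. Osmr, Il6st, Stat3 and Socs3 were thus well above Osm, an order not claimed for other ligands and receptors of the list. The related ligand Lif stood at 54.2, 42.9 and 40.5 TPM, with replicate 1 highest, and Il6 averaged 21.1 TPM. Nos2, the inducible nitric oxide synthase, averaged 29.2 TPM, and the chemokine Cxcl1 351.8 TPM. The leukocyte markers Ptprc and Csf1r stood at 0.2 and 1.93 TPM (2.249 and 3.672 CPM) in the same libraries, and Osm had 0.129 CPM.

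The spread between libraries depended on level. The median CV was 9.9% for genes averaging 1 to 10 TPM, 3.77% at 10 to 100 TPM, 2.64% at 100 to 1000 TPM and 2.38% above. Counting error alone, taken as Poisson, gave a median of 2.25% among the 8524 genes averaging at least 10 TPM, whose measured median was 3.43%. The Poisson value takes each count as 1 independent fragment, which the excess of even counts puts in doubt, so it may be too low. Of these genes, 22 had a CV of 20% or more, and 9 of the 22 were microRNA rows averaging at most 296 counts. Without replicate 2 or replicate 3 the number was 39 or 40. Mir207 had the highest, 48.4%, from 23, 10 and 15 counts. Of the well-counted ones, Snap91, a clathrin adaptor of neurons, stood at 13.6, 21.7 and 22.5 TPM, and Fbxl22, an F-box protein of the cardiac Z-disc, at 34.0, 54.9 and 48.0 TPM. Replicate 1 was the low library in both. Cenps, a centromere protein, stood at 12.0, 16.2 and 9.8 TPM, with replicate 2 high.

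**Figure D5:**
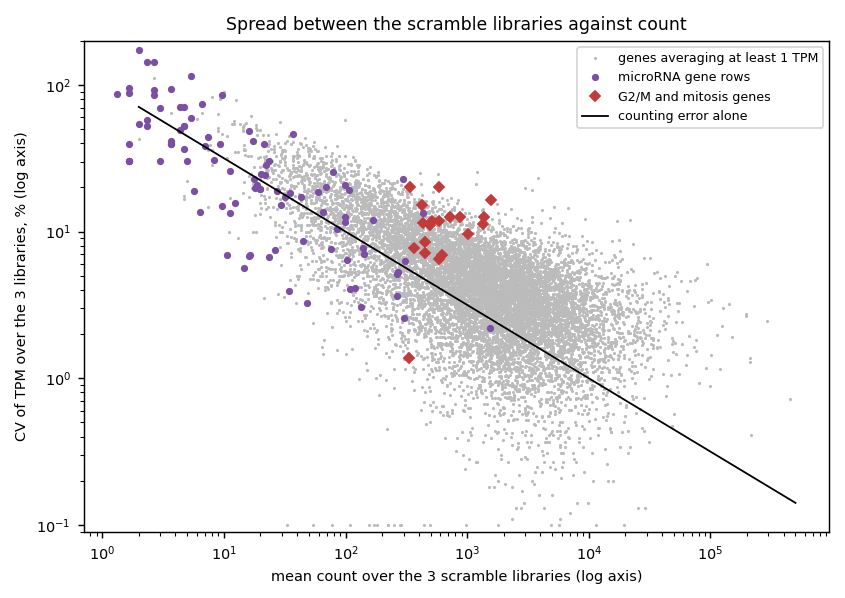
Coefficient of variation of TPM over the 3 scramble libraries against mean count (both log axes), 1 point per gene averaging at least 1 TPM. The line is counting error alone, taking each count as 1 fragment. MicroRNA rows (purple) lie mostly at few counts, near the line, and the G2/M genes (red) lie above it with 1 exception, Racgap1.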

How the data were processed

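RNA from 3 scramble siRNA libraries was analysed. Per the labels' protocols, amplified total RNA (Ovation RNA-Seq v2) went into paired-end Nextera XT libraries for HiSeq sequencing. The tools FastQC, cutadapt, Trim Galore, STAR and featureCounts, and the build rn5, appear unversioned in the submitters' processing notes. The sources used here do not state the strand setting, the annotation or the handling of shared reads. Raw gene counts and TPM values rounded to 0.1 were deposited. Each gene's TPM was proportional to its counts to within 1.86% in 6161 genes with at least 1000 counts per library, a factor that differed by gene. Even counts from 1 to 10 (3280) outnumbered odd ones (2587), so a count may not equal a fragment. The labels' protocols name no molecular identifiers, and the RNA was amplified, so reads are not independent molecules.

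Groups came from titles and treatment labels, and all columns were mapped to samples. Levels are deposited TPM, with mean and SD over 3 libraries, and no comparison between groups or significance test was made. Each of 42 lists (26 classes, 13 marker lists and 3 added after their values were seen) was summed and its median taken over members in the table, 652 of 677 genes, of which 10 were found under a newer symbol. Counts of genes past 1, 10, 100 and 1000 TPM require all 3 libraries. RefSeq GRCr8 matched 17074 of 17419 symbols. The members and lists were chosen with earlier results of these data known. Named genes were the 30 highest by mean TPM, Btg1 and Btg2, the 5 markers Myh6, Tnnt2, Col1a2, Kdr and Csf1r, both genes of each isoform pair, up to 6 highest and 3 lowest members of each list, and the 10 genes of highest CV averaging at least 10 TPM. Some genes that this rule names, and the ratios of 2 pairs, are not reported here. Other genes, among them the members of the 3 added lists, Plec and microRNA rows, and some of the list members printed between those limits, were chosen after their values were seen. TMM factors (edgeR 4.0.16, R 4.3.3) ran from 0.998 to 1.00 with a biological coefficient of variation of 3.78% in common over genes. Python 3.11.15 with pandas 2.3.3 and numpy 2.4.6 gave the rest, and these steps were tested on simulated data.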

Additional observations from a re-analysis of the deposited data

How the results depend on the processing

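Leaving out each library kept all 126 list sums, 126 list medians and 72 pair ratios within 1 SD of the value over 3 libraries. For sums and ratios this was fixed in advance, since leaving out 1 of 3 values cannot move their mean by 1 SD. It therefore says nothing about their stability. TMM scaling kept 41 of 42 sums within 1 SD. Its factors, 0.998 to 1.00, lay so close to 1 that means over 3 libraries could hardly move, so this too says little about stability. Detected genes numbered 10543 at a level of 2 TPM and 11664 at 0.5 TPM, against 11135 at 1 TPM. The share of the 100 highest genes was 20.0% without 3 ribosomal RNA rows, and the 50 and 200 highest took 13.6% and 29.7%. Without its highest member the cardiomyocyte sum was 16490 TPM, the fibroblast sum 5003 TPM, the endothelial sum 52.7 TPM and the macrophage sum 29.0 TPM. By counts with no length correction, the ratio of Ldhb to Ldha turned to 1.14 and that of Cox6a2 to Cox6a1 to 1.37, and 15 other ratios moved by over 1 SD. Of the 30 highest genes by TPM, 15 were among the 30 highest by counts, an alternative chosen after seeing the data. The 22 genes with a CV of 20% or more became 467 among genes averaging at least 1 TPM, 1 among those averaging at least 100 TPM, and 32 to 40 when 1 library was left out. No paired analysis was possible because only 1 group was described. The number of libraries limits every SD, and the depth behind microRNA rows limits their values.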
